A study of Rattus norvegicus with 150 samples.

Results

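Mt1 and Mt2A encode metallothioneins, and both were followed by their identifiers, ENSRNOG00000038047 for Mt1 and ENSRNOG00000043098 for Mt2A, in the RNA of rat muscle that held a metal implant. They are 2 of the 32545 genes in the count table, chosen by identifier. The rats were male Sprague-Dawley animals of about 30 days at purchase that had acclimated for at least 2 weeks before surgery. Each rat carried 4 cylinders, 2 per limb, of 1 mm diameter and 2 mm length in the gastrocnemius muscle, and the groups differ in the metal and in the time since surgery. Depleted uranium (DU), cobalt (Co) and a metal with the label P were studied at 1, 3, 6 and 12 months. Nickel (Ni) was studied at 1, 3 and 6 months, and tantalum (Ta) at all 4 times, and each metal is set against Ta of its own time. Ta was the surgery sham, so its rats also had the operation and a foreign metal in the muscle. The design text lists lead among its metals and no other with the initial P, and the label is kept as written. There were 150 libraries in 19 groups, 17 of 8 libraries and 2 of 7, the groups of 7 being Co at 6 months and Ta at 1 month.

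Metallothioneins are small proteins rich in cysteine that bind zinc and copper, and also toxic metals such as cadmium. When free zinc rises, the zinc-sensing factor MTF-1 binds short metal response elements in the promoters of the Mt1 and Mt2 genes and raises their transcription. Glucocorticoids, oxidants and inflammatory cytokines are also known to induce both genes. In skeletal muscle they are known to be induced during wasting. For these reasons they are widely used as a readout of metal ions and of stress in a tissue.

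The promoters are shown because the metal response element is the feature that ties these genes to metal. Both sequences are from RefSeq on build GRCr8 and cover the 250 bases before the annotated start of the gene, written 5′ to 3′ on the minus strand. The Mt1 window is chr19:10832976-10833225 and the Mt2A window is chr19:10838709-10838958. Capitals mark matches to the core of the metal response element, searched as TGCACNC and TGCGCNC on both strands.
Mt1: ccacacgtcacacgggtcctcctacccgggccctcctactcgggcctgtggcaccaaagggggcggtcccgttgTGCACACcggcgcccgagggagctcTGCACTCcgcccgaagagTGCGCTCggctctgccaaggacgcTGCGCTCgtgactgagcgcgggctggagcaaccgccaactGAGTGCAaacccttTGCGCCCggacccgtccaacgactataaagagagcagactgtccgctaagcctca
Mt2A: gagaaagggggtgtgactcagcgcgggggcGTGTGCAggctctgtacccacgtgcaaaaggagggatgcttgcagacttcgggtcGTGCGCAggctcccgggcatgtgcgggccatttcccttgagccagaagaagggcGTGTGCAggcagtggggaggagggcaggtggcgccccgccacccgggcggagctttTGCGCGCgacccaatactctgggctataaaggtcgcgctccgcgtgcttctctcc
The Mt1 window held 6 cores, and 9 of 33469 promoter windows of the same length (0.0269%) held as many or more. The Mt2A window held 4, and 89 windows (0.266%) held as many or more. At least 1 core was found in 20.6% of all windows. In the same windows of 2 relatives whose counts were not analysed, Mt3 held 3 cores and Mt4 held 1. The core nearest to the start lay 49 to 55 bases upstream in both genes. The antioxidant response element core TGACNNNGC matched 1 time in each window, against at least 1 match in 10.1% of all windows. The hypoxia response element core ACGTG matched 1 time in the Mt1 window and 2 times in the Mt2A window, where the 2 matches overlap on opposite strands, against at least 1 match in 16.6% and at least 2 in 6.53% of all windows. The glucocorticoid response element, searched as AGAACA and TGTTCT with any 3 bases between them, had no match in either window, and 4 of all windows held it. A match describes these letters only and shows no binding.

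A library held 12674115 to 21921859 counts (median 15778710). Mt1 was counted at low depth. It had 10 or fewer counts in 97 of the 150 libraries, with a median of 8 counts and a range of 0 to 12517. Mt2A had a median of 69 counts and a range of 11 to 195919. Levels are given in CPM, the count scaled to the library total after adjustment by the trimmed mean of M-values (TMM), and they are not scaled by gene length, so which of the genes has the higher level cannot be read from them. Over all genes, 16 libraries had a lower median correlation with the others of their group than any Ta library, whose values lay between 0.917 and 0.972. They were DU replicate 2 at 3 months (0.415), DU replicates 5 (0.905) and 6 (0.790) at 12 months, all 8 Co libraries at 3 months, Co replicates 1 and 3 at 1 month, Co replicate 1 at 6 months and Ni replicates 3 and 8 at 1 month. Since no label says which rat a library came from, the p-values rest on how libraries vary, which may be technical. The tissue and the cells in it could not be checked against their markers, because identifiers could not be paired with names.

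In the 31 Ta libraries Mt1 lay between 0.0668 and 1.04 CPM with a median of 0.482, and Mt2A between 1.17 and 19.3 CPM with a median of 3.71. Most libraries of the other metals lay inside these ranges. Both genes were above every Ta library in 11 of 119 libraries of the other metals, of which 5 carried Co, 4 DU, 1 Ni and 1 P. Mt1, whatever Mt2A did, was above all Ta libraries in 27, made up of 11 with Co, 8 with DU, 4 with Ni and 4 with P. Mt2A was above them in 12, of which 5 carried Co, 4 DU, 2 Ni and 1 P. Of the 11 libraries with both genes high, 3 came from DU at 12 months, 2 from Co at 3 months, and 1 each from Co at 1, 6 and 12 months, DU at 3 months, Ni at 3 months and P at 12 months. The TMM factor was above the highest Ta value of 1.28 in 8 libraries of the other metals, and 5 of these were among the 11, so composition moved with the high levels in part of them. Its part in the levels was not tested. In bulk RNA, fewer cells of a type and less RNA per cell cannot be told apart.

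**Figure D1:**
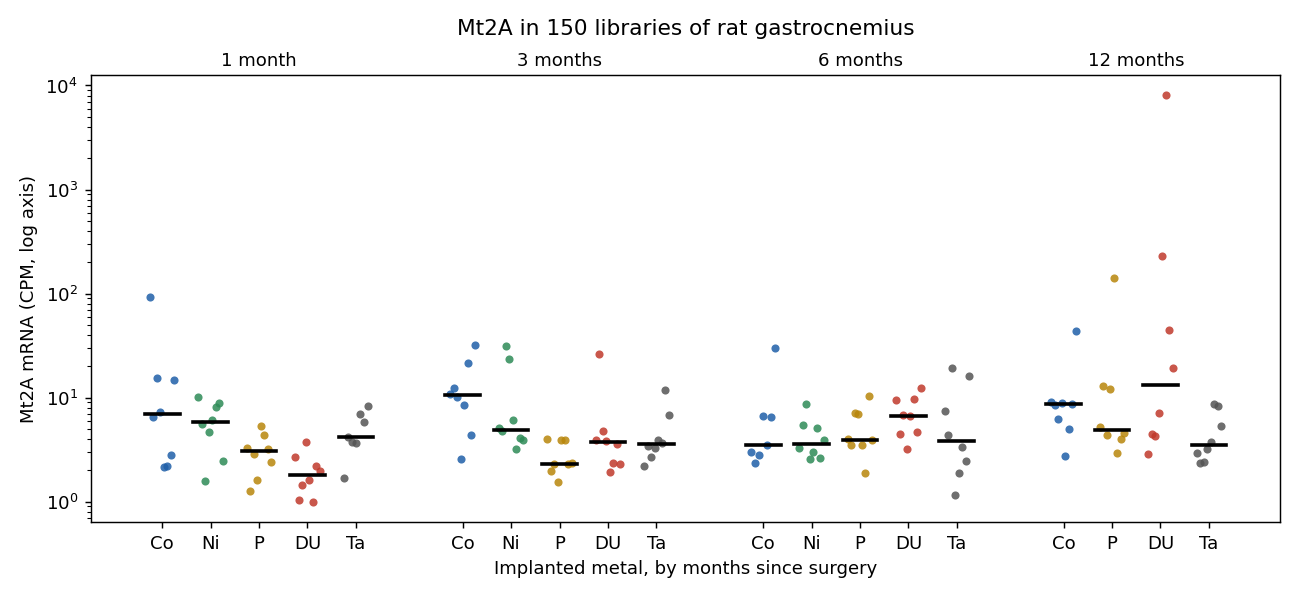
Mt2A in every library, in CPM on a log axis, by metal and by time since surgery, with a black bar at the median of each group. The libraries of DU at 12 months reach 8075 CPM in replicate 6 and 231 CPM in replicate 5, while the Ta libraries end at 19.3 CPM.

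**Figure D2:**
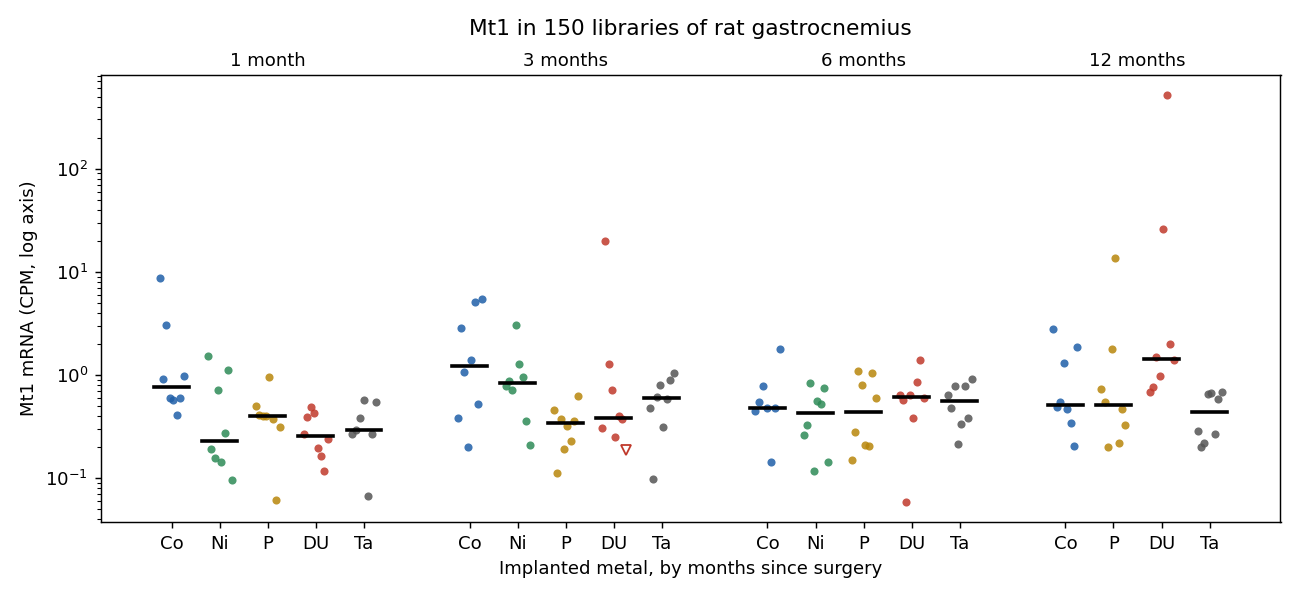
Mt1 in every library, in CPM on a log axis, by metal and by time since surgery, with a bar at the median of each group. All 8 libraries of DU at 12 months lie above the 8 Ta libraries of that time, and the open triangle marks the 3-count floor of DU replicate 8 at 3 months, which had 0 counts.

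Across all metals and times, neither gene passed an adjusted p of 0.05 against Ta with edgeR's quasi-likelihood test and Benjamini-Hochberg adjustment over all genes tested. Mt2A was tested in all 15 comparisons and had an unadjusted p under 0.05 in 9 of them. By an exact permutation test of the log2 CPM, fewer of the 15 had an unadjusted p under 0.05 for Mt2A. These were DU at 1 month (0.00528) and 12 months (0.0319) and Co at 3 months (0.0235) and 12 months (0.0432). Of 12255 genes with a mean of at least 1 CPM, 7.9%, 15.7%, 20.6% and 13.1% were under 0.05 there. Mt1 passed the filter on low counts in 4 of the 15, namely Co and Ni at 3 months and DU at 6 and 12 months, and had an unadjusted p under 0.05 in 2. Such a filter favours comparisons in which 1 group has high counts of the gene, so these 4 do not stand for Mt1 in all 15. With DESeq2, Mt1 passed in 2 comparisons and Mt2A in 3. With all 150 libraries in 1 model, Mt1 passed in 3 and Mt2A in 1. With limma voom and sample quality weights neither gene passed in any. The metals share the Ta libraries of a time, so their comparisons are not independent.

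**Figure D3:**
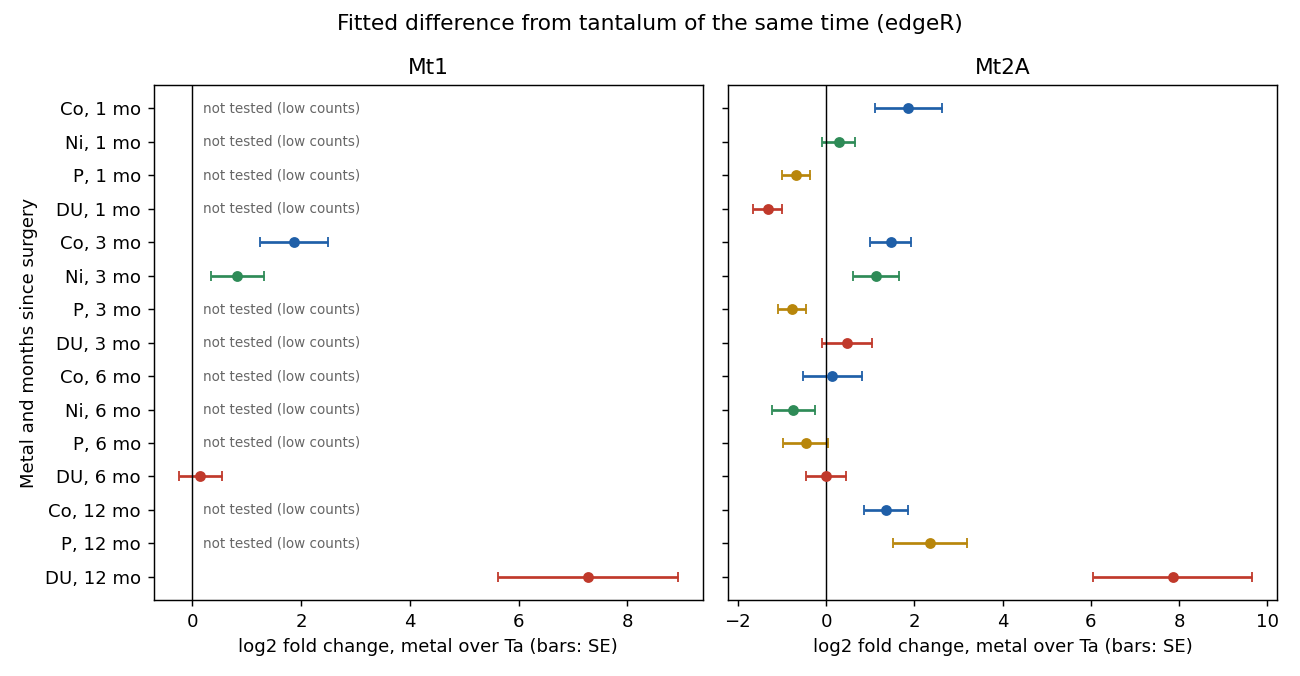
Log2 fold change of each gene against Ta of the same time by edgeR, with its SE as the error bar, for each metal and time. DU at 12 months has the highest values, at 7.27 for Mt1 and 7.85 for Mt2A. An Mt1 position without a point was not tested because of low counts.

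Depleted uranium at 12 months was the group with the highest median level of both genes, and its libraries were spread widely. Mt1 had 0.683, 0.765, 1.48, 0.975, 25.9, 516, 1.98 and 1.40 CPM in DU replicates 1 to 8, against 0.286, 0.200, 0.220, 0.649, 0.666, 0.267, 0.587 and 0.677 CPM in Ta replicates 1 to 8. Every DU library lay above every Ta library, though the lowest DU library, at 0.683 CPM, was close to the highest Ta library, at 0.677 CPM. These were 11 counts in DU replicate 1 and 10 counts in Ta replicate 8, and Ta replicate 5 also had 11 counts. The absence of overlap therefore rests on few counts and on the scaling of the libraries. DU was above Ta without overlap in 15 of the 25658 genes with a count (0.0585%), and in 13 of the 12255 with a mean of at least 1 CPM over all libraries (0.106%). Mt1 is among the 12255 only through DU at 12 months, since its mean is 4.57 CPM over all libraries and 0.958 CPM over the 142 others. Mt2A had 2.86, 4.46, 4.26, 7.07, 231, 8075, 44.5 and 19.3 CPM in DU replicates 1 to 8, against 2.93, 2.34, 2.42, 3.18, 3.75, 8.62, 8.22 and 5.35 CPM in Ta replicates 1 to 8. Here the groups overlapped, and 4 of 8 DU libraries were above all Ta libraries. The medians were 1.44 CPM in DU and 0.436 CPM in Ta for Mt1, and 13.2 CPM in DU and 3.47 CPM in Ta for Mt2A.

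In DU replicate 6 at 12 months Mt2A ranked 8th of all genes by raw counts, which are not scaled by length. It took 195919 of 15545182 counts, or 1.26% (95% exact Clopper-Pearson interval 1.25% to 1.27%, counting error only). No gene in that library stood further above the median of the other DU libraries than Mt2A, whose log2 difference was 10.13. For Mt1 the log2 difference was 8.40, and 3 genes stood further above. In replicate 5 the log2 difference was 5.00 for Mt2A with 5 genes further above, and 4.10 for Mt1 with 15 further above. In replicate 6, 224 genes were over 8-fold above the median of the other libraries of the group and 581 over 8-fold below it. In replicate 5 these were 49 above and 153 below. In the Ta libraries of that time, each set against its own group, they were 11 to 50 above and 2 to 37 below, so replicate 5 was past Ta in the genes below only. Their TMM factors were 1.56 for replicate 6 and 1.48 for replicate 5. Replicate 7, with a TMM factor of 1.02 and a typical correlation of 0.965 with its group (the median), also had Mt2A high at 44.5 CPM, a log2 difference of 2.63, with 12 genes over 8-fold above and 6 below.

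The edgeR log2 fold change of DU over Ta at 12 months was 7.27 ± 1.65 (SE) for Mt1 and 7.85 ± 1.81 for Mt2A, with 8 libraries in each group. The adjusted p was 0.150 for both, and 1 of 12113 genes was called (0.00826%). Mt1 entered the edgeR fits of this comparison through its DU counts, 11 to 12517 against 3 to 11 in Ta. It did not pass the filter on low counts for Co or P against the same Ta libraries. Its edgeR p and rank, also with libraries left out, therefore carry that selection. By p, Mt1 ranked 27th and Mt2A 34th of the genes tested, and by fold change Mt2A ranked 2nd and Mt1 4th. These sizes rest on replicates 5 and 6. Without replicate 6 the log2 fold change was 3.40 for Mt1 and 3.27 for Mt2A. Without both, it was 1.45 ± 0.35 for Mt1 (adjusted p = 0.0560 by edgeR) and 1.60 ± 0.61 for Mt2A (adjusted p = 0.224), and 127 of 12278 genes were then called. DESeq2, which replaced 1 count of each gene as an outlier, gave 3.25 ± 0.71 for Mt1 (adjusted p = 0.00354) and 3.11 ± 0.80 for Mt2A (adjusted p = 0.0183), beside 190 of 15503 genes called (1.23%). With all 150 libraries in 1 model, which share 1 estimate of the spread, both passed, beside 5.06% of genes.

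An exact permutation test of the log2 CPM gave a two-sided p of 0.000155 for Mt1, the smallest that 8 against 8 libraries allow, and 0.0319 for Mt2A. Adjusted over the 25658 genes with a count these were 0.108 for Mt1 and 0.472 for Mt2A. Over the 12255 genes, a set that Mt1 enters only through these DU libraries, they were 0.0544 and 0.269. An unadjusted exact p under 0.05 was found for 15.7% of the 12255 genes. Without replicates 5 and 6 the exact permutation p was 0.137 for Mt2A. For Mt1 the groups did not overlap in the first place, so leaving out 2 DU libraries had to give the smallest p possible, and that p shows nothing of stability. The difference of Mt1 in log2 CPM was 2.88 with all libraries and 1.25 without both.

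**Figure D4:**
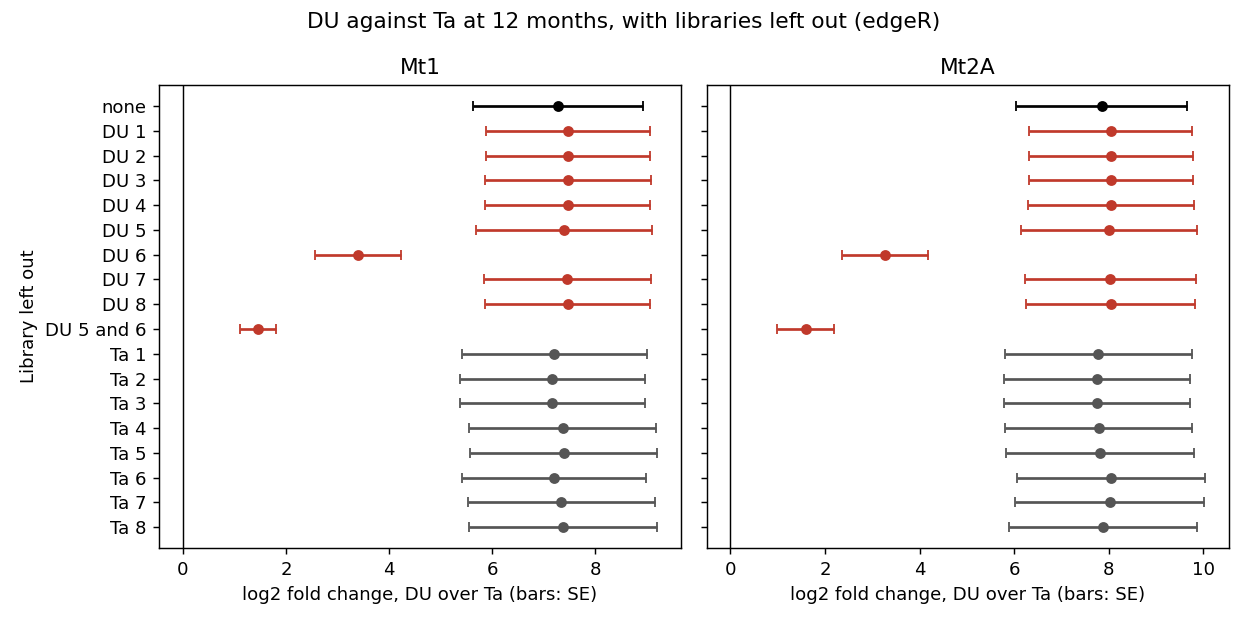
Log2 fold change of DU over Ta at 12 months by edgeR for each gene, with its SE as the error bar, with all libraries, with each DU or Ta library left out in turn and with DU replicates 5 and 6 left out together. Leaving out replicate 6, alone or with replicate 5, takes Mt1 to 3.40 and 1.45, and every other single library left out leaves it above 7.

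Depleted uranium at 1 month stood at the other end of the range, with the lowest mean log2 CPM of the 19 groups for both genes. Mt2A ran from 0.994 to 3.76 CPM in DU with a median of 1.80, against 1.69 to 8.30 CPM in Ta with a median of 4.15. No DU library was above the Ta median, and 4 of 8 were below all Ta libraries. By edgeR Mt2A gave a log2 fold change of -1.32 ± 0.33 (SE), which ranked 18th of 12439 genes by p, with an adjusted p of 0.495. No gene was called with edgeR at 1 month (0%), 1004 had an unadjusted p under 0.05, and limma voom also called none. DESeq2 gave -1.32 with an adjusted p of 0.0495 and called 20 of 13530 genes (0.148%). The exact permutation p was 0.00528, or 0.407 adjusted over the 12255 genes, and leaving out each library in turn kept it between 0.00200 and 0.0113. Mt1, at 0.116 to 0.485 CPM in DU and 0.0668 to 0.578 CPM in Ta, had an exact permutation p of 0.605.

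At 3 months most DU libraries lay in the range of Ta. Mt1 ran from 0 to 19.9 CPM in DU with a median of 0.384, against 0.0989 to 1.04 CPM in Ta with a median of 0.598. Mt2A ran from 1.94 to 26.5 CPM in DU with a median of 3.70, against 2.20 to 11.9 CPM in Ta with a median of 3.55. Both DU maxima are replicate 2, and the next highest DU libraries had 1.27 CPM of Mt1 and 4.77 CPM of Mt2A. In that library 1015 genes were over 8-fold above and 1563 over 8-fold below the median of its group, and 440 genes stood further above it than Mt1 and 1084 further than Mt2A. For Mt1, the 0 counts in replicate 8 allow up to 0.188 CPM. With all 150 libraries in 1 model Mt1 passed at 3 months (2.30 ± 0.83, adjusted p = 0.0312 by edgeR), beside 23.5% of genes. Mt2A had a log2 fold change of 0.47 ± 0.57 (adjusted p = 0.623 by edgeR, 0% of genes called, DESeq2 1431 of 15120), and its sign was the opposite with DESeq2 at -0.52 after 1 replaced count, with voom at -0.55 and with the replicate number as a block at -0.06. At 6 months Mt2A had a median of 6.70 CPM in DU and 3.86 CPM in Ta, and 7 of 8 DU libraries were above the Ta median. Its exact permutation p was 0.376. By edgeR the difference at 6 months was 0.14 ± 0.40 in log2 for Mt1 and -0.000286 ± 0.45 for Mt2A (0% of genes called), whose highest Ta libraries reached 16.2 and 19.3 CPM.

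Whether the DU difference from Ta itself changed with time was tested as an interaction. At 12 months against 1 month it was 9.16 ± 1.75 in log2 for Mt2A (adjusted p = 0.0643 by edgeR), the largest of the 13010 genes tested and the 2nd by p, and 7.54 ± 2.14 for Mt1 (adjusted p = 0.184). A single gene was called (0.00769%), and it was neither Mt1 nor Mt2A. Without replicate 6 at 12 months the interaction was 4.61 ± 1.01 for Mt2A (adjusted p = 0.135) and 3.68 ± 0.99 for Mt1 (adjusted p = 0.208). Without replicates 5 and 6 it was 2.90 ± 0.69 for Mt2A (adjusted p = 0.140) and 1.71 ± 0.54 for Mt1 (adjusted p = 0.280). At 3 and 6 months against 1 month the Mt2A interaction was 1.76 ± 0.69 and 1.33 ± 0.63, with adjusted p of 0.368 and 0.407 by edgeR, where 0.0688% and 0% of genes were called.

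Cobalt at 1 month had both genes highest in replicate 1. Mt1 ran from 0.413 to 8.67 CPM in Co with a median of 0.759, against 0.0668 to 0.578 CPM in Ta with a median of 0.292. All 8 Co libraries were above the Ta median and 6 of 8 above all 7 Ta libraries, on 6 to 207 counts in Co and 1 to 10 counts in Ta. Mt1 did not pass the filter on low counts in that comparison, and the exact permutation p was 0.00218, or 0.321 adjusted over the 12255 genes, where 10.4% of genes had an unadjusted exact p under 0.05. Leaving out each library in turn kept it between 0.00117 and 0.00466. With no filter, edgeR gave a log2 fold change of 2.44 ± 0.66 (adjusted p = 0.127), and with all 150 libraries in 1 model 2.53 ± 0.90 (adjusted p = 0.0476), where 1697 of 14762 genes were called (11.5%).

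Mt2A at 1 month ran from 2.14 to 92.1 CPM in Co with a median of 6.94, against 1.69 to 8.30 CPM in Ta with a median of 4.15. The groups overlapped, and 3 of 8 Co libraries were above all Ta libraries. Its log2 fold change was 1.86 ± 0.76 (adjusted p = 0.266 by edgeR), and 0.60 ± 0.48 without Co replicate 1. edgeR called 0 of 12512 genes (0%), with 1820 at an unadjusted p under 0.05, voom none and DESeq2 990 of 15443 (6.41%). That library had a TMM factor of 1.46 and 271 genes over 8-fold above the median of its group, of which 89 stood further above it than Mt2A and 118 further than Mt1.

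Cobalt at 3 months had the second highest medians of both genes after DU at 12 months. Mt1 ran from 0.202 to 5.43 CPM in Co with a median of 1.22, against 0.0989 to 1.04 CPM in Ta with a median of 0.598, and 5 of 8 Co libraries were above all Ta libraries. Mt2A ran from 2.56 to 32.2 CPM in Co with a median of 10.5, against 2.20 to 11.9 CPM in Ta with a median of 3.55, and 3 of 8 were above all Ta libraries. The Co group was uneven, with replicates 6 and 8 highest for both genes and replicate 4 lowest.

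The log2 fold change of Co over Ta at 3 months was 1.87 ± 0.62 (SE) for Mt1 (adjusted p = 0.0802 by edgeR) and 1.47 ± 0.46 for Mt2A (adjusted p = 0.0673). Neither passed the threshold, in a comparison where 801 of 12429 genes passed (6.44%), 767 of them higher in Co. With limma voom and sample quality weights 3 of 12429 genes passed (0.0241%), and neither Mt1 nor Mt2A was among them. With the replicate number as a block, which these libraries share, 1 gene passed (0.00805%), and the values were 1.35 ± 0.68 for Mt1 (adjusted p = 0.209) and 1.36 ± 0.46 for Mt2A (adjusted p = 0.117). With library totals in place of TMM factors they were 2.55 (adjusted p = 0.0223) and 2.11 (adjusted p = 0.0166), and 22.6% of genes passed. DESeq2 gave 1.84 for Mt1 (adjusted p = 0.0262) and 1.44 for Mt2A (adjusted p = 0.0163), beside 14.2% of genes. The exact permutation p was 0.0894 for Mt1 and 0.0235 for Mt2A, where 20.6% of genes were under 0.05. TMM factors above the highest of Ta were found in Co replicates 2, 3, 6 and 8, which were 4 of the 5 libraries with Mt1 above all Ta libraries.

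At 6 months replicate 7 was the only Co library above all Ta libraries, for both genes. Mt1 ran from 0.142 to 1.79 CPM in Co with a median of 0.481, against 0.212 to 0.923 CPM in Ta with a median of 0.560. Mt2A ran from 2.34 to 29.9 CPM in Co with a median of 3.48, against 1.17 to 19.3 CPM in Ta with a median of 3.86. For Mt2A the log2 fold change was 0.14 ± 0.67 (adjusted p = 0.999 by edgeR, 0% of genes called, DESeq2 51 of 14258). At 12 months Mt2A ran from 2.73 to 43.5 CPM in Co with a median of 8.59, against 2.34 to 8.62 CPM in Ta with a median of 3.47. Of 8 Co libraries, 7 were above the Ta median and 4 above all Ta libraries. Co over Ta gave 1.36 ± 0.51 in log2 (adjusted p = 0.287 by edgeR, 1 of 12045 genes called, 0.0083%), and 0.61 ± 0.32 without replicate 8. Its exact permutation p was 0.0432, or 0.368 adjusted over the 12255 genes. Mt1 at 12 months, at 0.206 to 2.81 CPM in Co and 0.200 to 0.677 CPM in Ta, had an exact permutation p of 0.137. The change of the Co difference with time did not pass for either gene at 3, 6 or 12 months against 1 month. The interaction furthest from 0 was -2.34 ± 0.85 for Mt1 at 6 months (adjusted p = 0.285 by edgeR, 0% of genes called).

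Nickel, like cobalt a transition metal, had a lower median of both genes than Co at 1 and 3 months. At 1 month Mt1 ran from 0.413 to 8.67 CPM in Co with a median of 0.759, against 0.0950 to 1.52 CPM in Ni with a median of 0.231. All 8 Co libraries were above the Ni median. The median of Mt2A was 6.94 CPM in Co and 5.83 CPM in Ni, and Co replicate 1 had 92.1 CPM, the next Co library 15.3 CPM. By mean log2 CPM the difference was 1.35 for Mt1 (exact permutation p = 0.0468, adjusted 0.252). For Mt2A it was 0.61 (exact permutation p = 0.435), and with voom its sign was the opposite. By edgeR, Co over Ni at 1 month gave a log2 fold change of 1.94 ± 0.73 for Mt1 (adjusted p = 0.134 by edgeR) and 1.65 ± 0.71 for Mt2A (adjusted p = 0.161), and 0 of 12416 genes passed (0%). At 3 months it was 1.12 ± 0.65 for Mt1 (adjusted p = 0.234) and 0.39 ± 0.58 for Mt2A (adjusted p = 0.640), in a comparison where 1507 of 12403 genes passed (12.2%). At 6 months Mt2A gave 0.87 ± 0.51 (adjusted p = 0.476 by edgeR, 0% of genes called). These p-values do not show that both metals act alike.

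Against Ta, Ni gave Mt2A log2 fold changes of 0.29 ± 0.37 at 1 month, 1.14 ± 0.52 at 3 months and -0.74 ± 0.49 at 6 months, and edgeR called no gene at any of these times (0%). The adjusted p lay between 0.722 and 0.998. DESeq2 called 2, 5 and 1 genes at these times. At 3 months replicates 3 and 4 were highest in Ni, with 31.6 and 23.7 CPM, against a highest Ta library of 11.9 CPM, and the median was 4.92 CPM in Ni and 3.55 CPM in Ta. In replicate 3 Mt1 was not high, at 0.721 CPM, while in replicate 4 it was 3.03 CPM, the highest of its group. For Ni against Ta at 1, 3 and 6 months, the exact permutation p of Mt2A was 0.637, 0.174 and 0.702. That of Mt1 was 0.709, 0.266 and 0.289.

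The metal labelled P had a lower median of Mt2A than Ta at 1 and 3 months and a library far above the rest for both genes at 12 months. At 1 month Mt2A ran from 1.27 to 5.32 CPM in P with a median of 3.05, against 1.69 to 8.30 CPM in Ta with a median of 4.15. At 3 months it ran from 1.55 to 3.97 CPM in P with a median of 2.32, against 2.20 to 11.9 CPM in Ta with a median of 3.55. The groups overlapped at both times. P over Ta gave log2 fold changes of -0.69 ± 0.32 at 1 month (adjusted p = 0.603 by edgeR, 0% of genes called) and -0.77 ± 0.32 at 3 months (adjusted p = 0.159, 0.338% called), and -0.46 ± 0.51 at 6 months (adjusted p = 0.732, 0% called). The exact permutation p was 0.0976 at 1 month and 0.0771 at 3 months. Mt1 in P at 3 months, at 0.112 to 0.632 CPM against 0.0989 to 1.04 CPM in Ta, had an exact permutation p of 0.0949.

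At 12 months P replicate 5 had 13.7 CPM of Mt1 and 140 CPM of Mt2A, on 255 and 2605 counts. The next highest P libraries had 1.78 CPM of Mt1 and 12.9 CPM of Mt2A, while Ta reached 0.677 CPM of Mt1 and 8.62 CPM of Mt2A. For each gene 3 of 8 P libraries were above all Ta libraries, and 5 of 8 for Mt1 and 7 of 8 for Mt2A were above the Ta median. In that library 7 genes stood further above the median of the other P libraries than Mt1 and 4 further than Mt2A. Its TMM factor was 1.03 and its median correlation with its group 0.954, the lowest of the 8 P libraries of that time and within the 0.917 to 0.972 of all 31 Ta libraries. In it 46 genes were over 8-fold above the median of the other P libraries, the most of the group, and 20 over 8-fold below. The log2 fold change of P over Ta was 2.35 ± 0.84 for Mt2A (adjusted p = 0.161 by edgeR, with 290 of 12179 genes called, 2.38%) and 0.53 ± 0.38 without that library. DESeq2, which replaced the high count, gave 0.47 ± 0.35 (adjusted p = 0.502). The median was 4.88 CPM in P and 3.47 CPM in Ta, and the exact permutation p was 0.125. The interaction of 12 months against 1 month was 3.02 ± 0.94 for Mt2A (adjusted p = 0.371 by edgeR, 0% of genes called).

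In the Ta rats Mt2A passed no edgeR test between times, and neither gene had an exact permutation p under 0.05. The median of Mt1 in Ta was 0.292, 0.598, 0.560 and 0.436 CPM at 1, 3, 6 and 12 months, and that of Mt2A was 4.15, 3.55, 3.86 and 3.47 CPM. The log2 fold change of Mt2A against 1 month was -0.06 ± 0.37 at 3 months, 0.51 ± 0.52 at 6 months and -0.10 ± 0.34 at 12 months, with adjusted p between 0.512 and 0.977 by edgeR. In these comparisons 0.00813%, 9.84% and 17.7% of genes passed. Mt1 did not pass the filter on low counts in these comparisons, and its exact permutation p was 0.134, 0.0870 and 0.397. Time since surgery, age of the rat and any batch tied to a time cannot be told apart.

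Ordered by mean log2 CPM over the 19 groups, DU at 12 months and Co at 3 months ranked 1st and 2nd for both genes. Co at 1 month ranked 3rd for Mt1 and 5th for Mt2A, and P at 12 months ranked 5th for Mt1 and 3rd for Mt2A. The last 2 groups were P at 3 months and DU at 1 month for both. No gap between 2 neighbours in the order was over 1 SD of the libraries, for either gene. The largest was 0.572 SD for Mt1 and 0.925 SD for Mt2A.

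Mt1 and Mt2A moved together from library to library. After the mean of each group was subtracted, Pearson's r of their log2 CPM was 0.773 in Co (31 libraries), 0.530 in Ni (24), 0.821 in P (32), 0.875 in DU (32) and 0.448 in Ta (31). Spearman's rho was 0.700 in Co, 0.528 in Ni, 0.651 in P, 0.606 in DU and 0.476 in Ta. With 100000 permutations within groups, the permutation p of Pearson's r, adjusted over these 5 relations, was 5e-05 in Co (raw 1e-05, the smallest they can give), 0.0146 in Ni (raw 0.0146), 0.000217 in P (raw 0.00012) and DU (raw 0.00013), and 0.0146 in Ta (raw 0.0125). For Spearman's rho it was 0.0002 in Co (raw 4e-05), 0.0119 in Ni (raw 0.0119), 0.00122 in P (raw 0.00049), 0.004 in DU (raw 0.0024) and 0.0118 in Ta (raw 0.00947). Without the 2 libraries farthest from the median of Mt1, r was 0.678 in Co, 0.364 in Ni, 0.615 in P, 0.707 in DU and 0.599 in Ta. The permutation p was then 8e-05 in Co, 0.00114 in P, 0.00441 in DU and 0.0011 in Ta. In Ni it was 0.103 over 22 libraries, so the relation in Ni did not pass without these 2. The group means subtracted were those of all libraries and were not taken again. These r values are therefore not free of the libraries left out. The values of both genes come from the same libraries and share their depth and scaling.

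**Figure D5:**
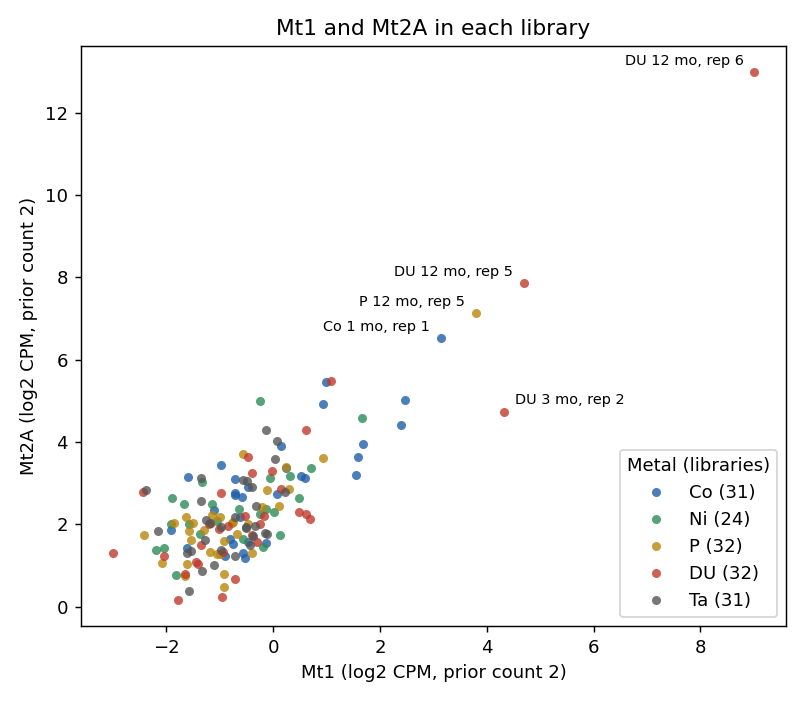
Log2 CPM of Mt2A against log2 CPM of Mt1, 1 point per library, coloured by metal. The libraries of DU replicates 5 and 6 at 12 months and P replicate 5 at 12 months are high for both genes, and DU replicate 2 at 3 months has more Mt1 for its Mt2A than any Ta library.

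The ratio of Mt1 to Mt2A counts is compared between libraries, where gene length has no part. Per 100 counts of Mt2A a library had a median of 12.0 counts of Mt1 in Co, 9.81 in Ni, 11.5 in P, 12.1 in DU and 10.3 in Ta. This ratio was 75.2 in DU replicate 2 at 3 months, from 242 counts of Mt1 and 322 of Mt2A, and the highest Ta library had 24.5. In DU replicate 6 at 12 months, where Mt2A was highest, it was 6.39.

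Over all 150 libraries, with group means subtracted, the 2 genes had an r of 0.784, and each was the 2nd closest of 12254 genes to the other. The median r over all genes was 0.00 to Mt1 and 0.01 to Mt2A. The closest to both was ENSRNOG00000025764, with an r of 0.818 to Mt1 and 0.852 to Mt2A, and it was also closest by the means of the 19 groups (0.942 and 0.949). That gene had 2396 CPM in DU replicate 6 and 134 CPM in DU replicate 5 at 12 months, 58.8 CPM in P replicate 5 at 12 months and 97.0 CPM in DU replicate 2 at 3 months, against 0.482 to 4.63 CPM in Ta. Without those DU libraries, over 147, it was again the closest gene, with an r of 0.675 to Mt1 and 0.768 to Mt2A. No source used here names this gene, and whether it shares reads with the metallothioneins was not tested.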

How the data were processed

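RNA from rat gastrocnemius was made into stranded total RNA libraries, per the labels' protocols. The table the authors deposited holds raw counts, as whole numbers per gene. HISAT2 2.0.5 aligned the reads to Rnor_6.0, and genes were counted with featureCounts 1.5.0-p3, per the submitters' processing notes. The strand setting and the handling of reads that match several genes are not given in the sources used here. Reads shared between related metallothionein copies are uncertain. Total counts ran from 12674115 to 21921859 per library, and counting intervals and floors (3 counts) cover counting error only.

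The members and lists were chosen with earlier results of these data known. The rule named Mt1 and Mt2A by identifier, and for each the genes with the highest Pearson r to it over libraries and over group means, of which at most 2 identifiers are printed. The 6 gene lists and the cell type markers could not be used, because 0 of 32545 identifiers matched a name in the reference tables, whose assembly is GRCr8. Promoter sequences were read from RefSeq on GRCr8 by symbol, and both members matched.

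Only the libraries of the groups compared entered a fit, with filterByExpr, TMM factors and the robust quasi-likelihood test of edgeR 4.0.16 (limma 3.58.1, R 4.3.3), Benjamini-Hochberg adjustment over all genes tested and a threshold of 0.05. The filter left 12034 to 13749 genes, with median log2 fold changes of -0.06 to 0.04. The script was tested on simulated data. TMM factors for printed CPM were computed on all 150 libraries together, and 2 was the prior count of log2 CPM. Exact two-sided permutation tests compared mean log2 CPM in 42 tests, adjusted over the 12255 genes with a mean of at least 1 CPM and, for DU at 12 months, also over the 25658 genes with a count, which was chosen after seeing the data. Alternatives were RLE size factors, library totals, no filter, DESeq2 1.42.0, 1 model of all 150 libraries, the replicate number as a block, limma voom with sample quality weights and leaving out each library of Co and Ta at 1 and 3 months. Leaving out libraries of Co and P at 12 months and of DU at 1 and 12 months, alone or replicates 5 and 6 together, was chosen after seeing the data. Replicate numbers come from the labels, which do not say what they share. Same-numbered libraries deviated together in 8 of 8 pairs for Co against Ta at 3 months only, with correlations of 0.125 to 0.464.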

Additional observations from a re-analysis of the deposited data

Results flagged for a closer look

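In 13 of the 38 combinations of gene and group, the highest library lay far from the others of its group, by Dixon's test at the 95% level. Chance flags about 1 in 20 groups where values are normally distributed, and the rate for CPM, which need not be, was not tested. Both genes were set apart in the same library 5 times. These were DU replicate 6 at 12 months, with 516 CPM of Mt1 and 8075 CPM of Mt2A, P replicate 5 at 12 months, with 13.7 CPM of Mt1 and 140 CPM of Mt2A, DU replicate 2 at 3 months, with 19.9 CPM of Mt1 and 26.5 CPM of Mt2A, Co replicate 1 at 1 month, with 8.67 CPM of Mt1 and 92.1 CPM of Mt2A, and Co replicate 7 at 6 months, with 1.79 CPM of Mt1 and 29.9 CPM of Mt2A. A single gene was set apart in Co replicate 8 at 12 months (Mt2A, 43.5 CPM), in Ni replicate 4 at 3 months (Mt1, 3.03 CPM) and in Ta replicate 7 at 3 months (Mt2A, 11.9 CPM). The last is a sham library, and without it the log2 fold change of Mt2A in Co against Ta at 3 months was 1.80 (adjusted p = 0.0354 by edgeR). In that fit 540 of 12623 genes were called (4.28%).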

How the results depend on the processing

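Neither gene passed in any comparison by edgeR, so the alternatives could end no call. Of 47 tested results, all 47 kept their direction and side of the threshold with RLE size factors, and all 27 outside the interactions did so with no filter. Calls were gained with DESeq2 for Mt2A in DU against Ta at 1 month (-1.32), for Mt1 (1.84) and Mt2A (1.44) in Co against Ta at 3 months and for Mt1 (3.25) and Mt2A (3.11) in DU against Ta at 12 months. Library totals gained Mt1 (2.55) and Mt2A (2.11) in Co against Ta at 3 months. All 150 libraries in 1 model gained Mt1 (7.25, adjusted p = 6.91e-09 by edgeR) and Mt2A (7.84, adjusted p = 1.14e-09) in DU against Ta at 12 months. It also gained their interactions with 1 month (7.53 for Mt1 and 9.17 for Mt2A). With it 5.06% of genes were called in the comparison and 1.44% in the interaction. That model shares 1 estimate of the spread over all groups.

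Leaving out 1 library gave, for Co against Ta at 3 months, log2 fold changes of 1.5 to 2.03 for Mt1 and 1.10 to 1.80 for Mt2A. Mt1 passed without Co replicate 1 (adjusted p = 0.0438 by edgeR), 4 (0.0309) or 7 (0.0488). Mt2A passed without Co replicate 4 (adjusted p = 0.0218 by edgeR) or 7 (0.0376) or Ta replicate 7 (0.0354). Of all genes tested, 10.4%, 12.2% and 10.4% passed without Co replicates 1, 4 and 7. Without Ta replicate 7 it was 4.28%, and with all libraries 6.44%. For DU against Ta at 12 months the range was 3.40 to 7.47 for Mt1 and 3.27 to 8.06 for Mt2A, with no call. Of 134 results with libraries left out, these 6 gained a call and none turned.

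The direction turned in the following results. Mt2A in DU against Ta at 3 months was -0.0638 with the replicate block, -0.55 with voom, -0.52 with DESeq2 and -0.00598 by mean log2 CPM. Mt2A in DU against Ta at 6 months was 0.0703 with library totals, 0.00944 with all libraries, 0.46 with the replicate block, 0.0122 with DESeq2 and 0.50 by mean log2 CPM. With voom, Mt2A was -0.42 in Co against Ta at 6 months, -0.22 in Co against Ni at 1 month, and 0.32 and 0.10 in Ta at 3 and 12 months against 1 month, and Mt1 was -0.33 in DU against Ta at 6 months. With the replicate block the Mt2A interaction of 3 months against 1 month was 0.0595 for Co and 0.0904 for P. The cause of these turns was not tested. Apart from Co against Ta at 3 months, not all same-numbered pairs had a correlation over 0.1, as in 6 of 8 for P against Ta at 3 months. What the replicate numbers share is not known. In DU against Ta at 12 months 2 of 8 pairs were over 0.1, and the block gave 3.08 for Mt1 and 2.27 for Mt2A. The low counts of Mt1 limit what its tests can show.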
